A study of Bos taurus with 16 samples.

Results

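The mitochondrial ribosomal proteins were taken as every probe whose gene symbol in the deposited table reads MRPL or MRPS, a number and at most 1 further letter. The rule found 140 of 43653 probes, for 75 genes, of which 46 carry large-subunit and 29 small-subunit names. No measured value entered the choice. A gene had up to 4 probes, 45 genes had more than 1, and each probe was printed once on the array. For 126 of the 140 probes the accession in the probe's description was found in a bovine RefSeq table, each time under the same symbol. The array was designed on another assembly than that table, so no genome positions are given.

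Mitochondria keep a small genome that codes for core subunits of the respiratory chain, and they translate it on ribosomes of their own. All protein components of these ribosomes are encoded in the nucleus, made in the cytosol and imported, so their messenger RNA is part of the cell's ordinary transcript pool. Many have counterparts in the bacterial ribosome, while others were added in the mitochondrial lineage. In blood, leukocytes and platelets carry mitochondria and mature red cells have lost them.

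Whole blood of lactating Holstein Friesian cows was measured on 16 single-colour arrays, 4 for each of 4 groups. Of 10 cows enrolled, 5 took an oral commercial microbial pack (yeast culture with Enterococcus faecium, Lactobacillus acidophilus and Bacillus subtilis fermentation products and Aspergillus oryzae) and 5 took water. The groups were blood drawn at day 0 before the supplement, labelled as the probiotic arm; blood of the probiotic cows at day 60; blood of the untreated cows at day 60; and blood of the probiotic cows at day 60 exposed ex vivo to 100 ng/ml of LPS (lipopolysaccharide from the outer membrane of bacteria). All blood was held for 30 min at 37 °C in 5% CO2. Whether the day 0 pool also holds the water arm is not stated in the labels. Equal amounts of RNA of a group's animals were pooled, so the 4 arrays of a group read 1 pool, and every p-value here measures the spread between arrays and not between cows. Which slide held which array was not read here, so a slide's part in a difference cannot be told apart from the group's. The probiotic and LPS arrays were scanned on the same day and the day 0 and untreated arrays each on another.

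The arrays were unequal. Spots well above background, by the scanner software's own call, made up 32.9 ± 4.70% (SD, n = 4 arrays) of spots in the probiotic group, 34.4 ± 8.53% in the LPS group, 17.9 ± 6.59% at day 0 and 15.2 ± 3.06% in the untreated group. Over the 671 probes well above background on all 16 arrays, the untreated arrays had rank correlations of 0.14 to 0.38 with the arrays of other groups, against 0.58 to 0.84 among themselves. Day 0 replicate 4 and LPS replicate 4 had correlations of 0.54 to 0.84 with the other arrays outside the untreated group, and all remaining pairs lay between 0.87 and 0.99. The probes share their arrays, so these correlations describe the arrays only. Signals below are given in percent of a reference level, the 75th percentile of the net signal of those 671 probes on the same array. A probe below the dimmest detected spot of its array was set to that spot's level: 0.370 to 0.641% on the probiotic arrays, 0.279 to 2.15% on the LPS arrays, 1.04 to 4.95% at day 0 and 5.68 to 10.7% on the untreated arrays. Such a reading is an upper limit and is called dim.

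The probes below carry the results on how well a gene could be read. Each is a 60-base probe written as the deposited table gives it, and each is named by its gene and its row on the array, of 532 rows. The MRPL12 probes share 53 bases and the MRPL38 probes share 37, printed in capitals; the MRPL24 probes do not overlap, and the MRPS34 probe is the only one of that gene.
MRPL12 row 94: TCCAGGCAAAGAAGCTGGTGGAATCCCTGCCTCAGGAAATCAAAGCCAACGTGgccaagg
MRPL12 row 472: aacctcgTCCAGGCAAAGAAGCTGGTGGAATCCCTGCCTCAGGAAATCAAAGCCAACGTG
MRPL38 row 17: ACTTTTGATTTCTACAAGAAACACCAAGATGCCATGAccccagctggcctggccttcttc
MRPL38 row 452: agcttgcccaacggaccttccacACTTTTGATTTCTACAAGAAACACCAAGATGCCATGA
MRPL24 row 524: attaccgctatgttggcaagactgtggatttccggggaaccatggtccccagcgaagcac
MRPL24 row 323: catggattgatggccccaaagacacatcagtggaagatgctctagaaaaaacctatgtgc
MRPS34 row 123: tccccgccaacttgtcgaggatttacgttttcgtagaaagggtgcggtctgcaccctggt

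Mitoribosomal protein probes were read well above background more often than the average probe in 3 of the 4 groups. On the probiotic arrays 85, 83, 85 and 65 of the 140 probes were detected, 56.8 ± 6.94% (SD, n = 4), beside 32.7 ± 4.65% of all probes. The LPS arrays detected 75, 89, 91 and 49 probes, 54.3 ± 13.8%, beside 34.1 ± 8.47% of all probes. At day 0 the counts were 70, 61, 56 and 16, or 36.2 ± 17.1%, beside 17.8 ± 6.58%. The untreated arrays stood apart: 16, 21, 20 and 19 probes were detected, 13.6 ± 1.54%, beside 14.9 ± 3.13% of all probes. All 4 probiotic arrays lay above all 4 untreated arrays, whereas the day 0 and LPS groups each held 1 array far below its others. Fewer cells of a type and less RNA per cell cannot be told apart in such bulk blood, and a dimmer slide cannot be told apart from either here.

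**Figure D1:**
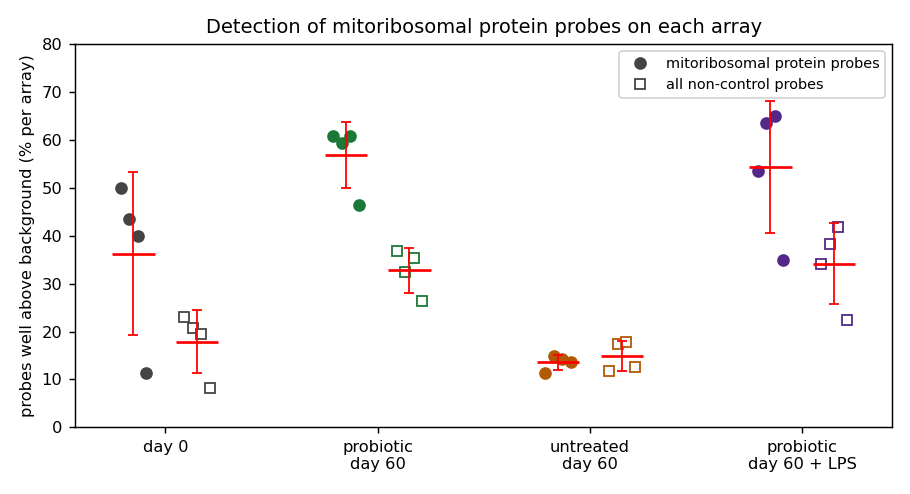
Share of probes well above background on each array, in percent, by group. Filled circles are the 140 mitoribosomal protein probes and open squares all non-control probes; red lines are the mean and SD over 4 arrays. The mitoribosomal probes lie above all probes at day 0, with the probiotic and with LPS, and level with them on the untreated arrays (13.6% and 14.9%).

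By gene, 47 of 75 genes had a probe detected on all 4 probiotic arrays, 29 on all 4 LPS arrays, 14 at day 0 and 5 on the untreated arrays. No probe of 40 genes was detected on any untreated array, against 24 at day 0, 15 with the probiotic and 8 with LPS. Probes with large-subunit names were detected somewhat more often than those with small-subunit names. The shares were 60.6 ± 6.42% and 49.5 ± 8.22% on the probiotic arrays and 41.3 ± 18.6% and 26.6 ± 14.3% at day 0. The share under large-subunit names was the higher on all 4 arrays of both groups, and the difference was not tested. The 3 S18 paralogues illustrate the range. MRPS18A, which sits in the large subunit, read 7.25, 7.56, 7.41 and 11.1% of the reference on the probiotic arrays and was dim on all untreated arrays. MRPS18B read 8.50, 8.24 and 10.5% on probiotic replicates 1 to 3, was dim on replicate 4 and on every day 0 array, and so entered no test. MRPS18C was detected on 1 day 0 array, at 1.07%, and on 1 LPS array, at 0.335%.

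Where a probe lay on the array went with whether it was read. On the probiotic arrays 100% of readings of mitoribosomal probes in the outermost 10% of rows at the start of the array and 95% at its end were well above background, against 12.5% in rows 160 to 212. All probes showed the same course, with 58.4%, 61.5% and 16.5%. A further rise lay in rows 267 to 319, with 80.4% of mitoribosomal and 36.2% of all readings on the probiotic arrays and 82.1% and 35.1% with LPS, but only 10.7% and 5.98% at day 0. On the untreated arrays the mitoribosomal probes showed no such course, at 10.7% and 6.67% of readings in the outermost rows. Over all probes these arrays had 12.4% and 22.1% there, above the 8.92% and 14.8% of the blocks next to them. In rows 160 to 212 the share of all probes was 14.1%. In the outer rows (1 to 106 and 426 to 532), 47 of 67 mitoribosomal probes were detected on all 4 arrays of some group, 70.1%, and in the rows between 27 of 73, 37.0%; over all probes the shares were 43.3% and 18.0%. Of 27 genes with probes in both zones, 13 passed this filter by an outer probe alone, 4 by a middle probe alone, 7 by both and 3 by neither.

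**Figure D2:**
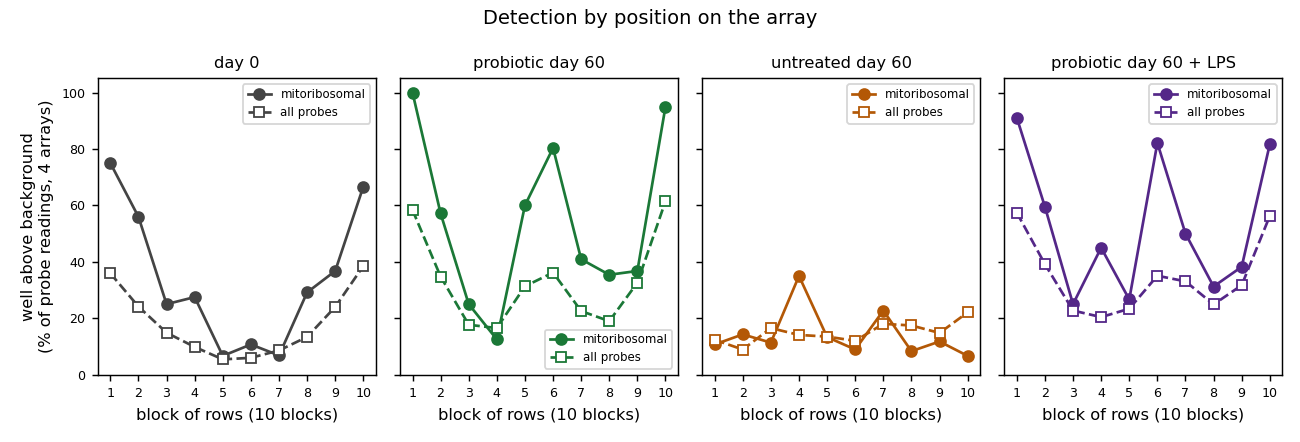
Share of probe readings well above background in each of 10 blocks of the array's rows, in percent over the 4 arrays of a group, for mitoribosomal protein probes (filled circles) and all non-control probes (open squares). In 3 groups blocks 1 and 10 are read more often than the blocks next to them, with a further peak in block 6 of the probiotic and LPS arrays. On the untreated arrays this holds for all probes at blocks 1 and 10, and not for the mitoribosomal probes.

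Overlapping probes of 1 gene differed in level. Such probes differ both in row and in bases, and the part of each was not tested. The MRPL12 probes printed above differ by a shift of 7 bases, and MRPL12 is a stalk protein also known to bind the mitochondrial RNA polymerase. In row 472 it read 6.20, 6.53, 7.18 and 8.30% of the reference at day 0, 4.43, 4.97, 4.83 and 6.88% with the probiotic, and 5.64, 5.02, 4.74 and 9.96% with LPS. In row 94 the readings were 3.78, 3.15 and 3.37% on day 0 replicates 1 to 3 and 2.02, 1.82, 2.28 and 1.20% with the probiotic. The row 472 probe was the higher on all 10 arrays where both were detected, by 1.06 to 5.73 times. The MRPL38 probes kept a steadier ratio, with row 17 above row 452 by 1.26 to 1.95 times on 10 arrays.

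For MRPL21 and MRPL45 the overlapping probes gave different patterns over the groups. The MRPL21 probe in row 54 read 17.7, 19.7, 20.3 and 16.7% of the reference at day 0 and 30.4, 33.4, 32.6 and 51.4% with the probiotic. Its partner in row 269 shares 52 bases, was dim on all day 0 arrays, and read 7.43, 6.86, 7.72 and 0.689% with the probiotic. Probiotic replicate 4 was thus the highest probiotic array at row 54 and the lowest at row 269. The MRPL45 probes share 57 bases; row 1 read 8.62, 9.81, 9.92 and 11.2% with the probiotic, while row 278 read 6.27, 5.16 and 6.44% and was dim on replicate 4. Of the MRPL24 probes printed above, row 524 was detected on all 4 arrays of every group but the untreated, and row 323 on no day 0 array. A gene's level is therefore given for 1 probe, and no gene's level is set against another's.

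**Figure D3:**
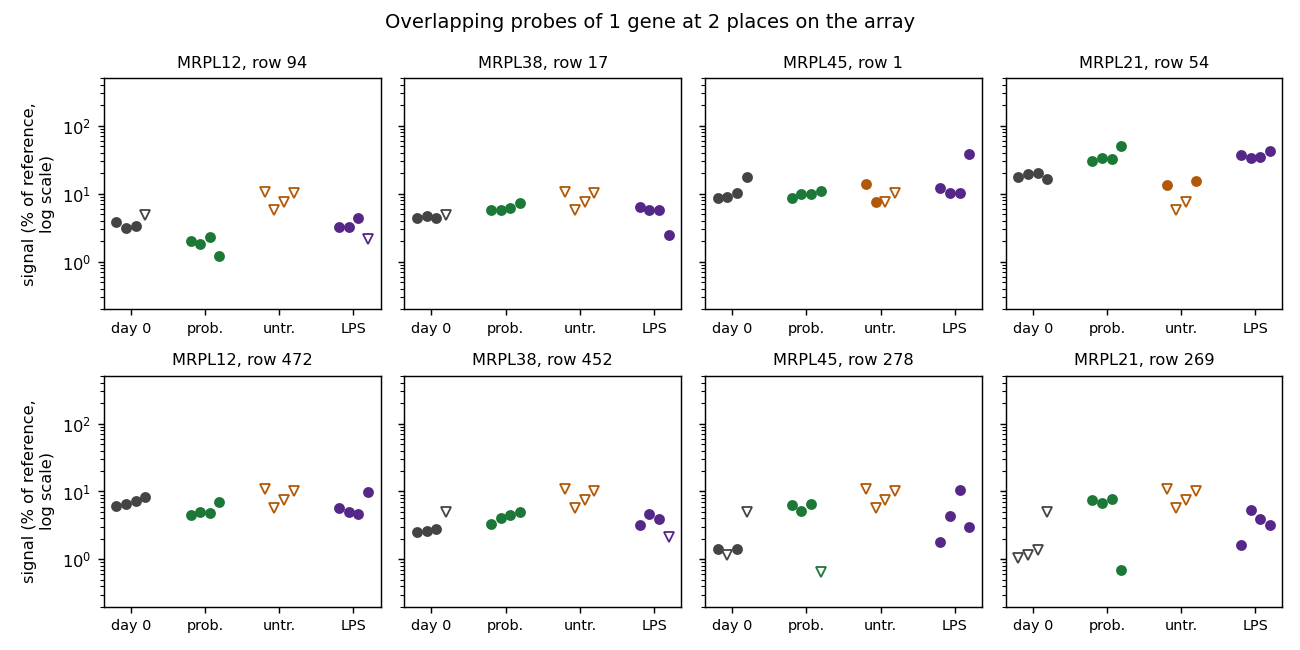
Signal in percent of the reference level (log axis) of overlapping probes of MRPL12, MRPL38, MRPL45 and MRPL21 on the 16 arrays, 4 per group, with the lower-numbered row on top. Filled circles were well above background; open triangles are dim readings set to the array's dimmest detected spot. The MRPL38 probes run in parallel; the MRPL45 and MRPL21 probes of the middle rows fall on probiotic replicate 4 where those of the outer rows rise.

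For the tests, a gene was represented by its brightest probe among those detected on all 4 arrays of at least 1 group. This kept 74 probes of 53 genes, 35 with large-subunit and 18 with small-subunit names, among 9401 features, and left out 22 genes. Among these 22 are MRPS16 and MRPL3, counterparts of bacterial ribosomal proteins, and MRPL44, a protein with a nuclease-like fold, all known from inherited disease. A gene could pass the filter through the same group in which it was then called higher. A gene was called when limma's Benjamini-Hochberg adjusted p over all 9401 features was under 0.05, the fold was at least 2 and the higher group was detected on at least 3 arrays. Where the lower group was dim throughout, the fold is a lower limit under this scaling, provided that the higher group held no dim array. No fold is given where the dim group's limit lay above the other group's reading. The probiotic group served in 3 comparisons, and the untreated and day 0 groups in 2 each, so the comparisons are not independent.

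MRPL41 was the only mitoribosomal gene detected on all 16 arrays. It belongs to the large subunit and has no bacterial counterpart. It read 89.6, 93.9, 101 and 10.6% of the reference at day 0, 107, 117, 129 and 147% with the probiotic, 30.7, 268, 22.1 and 26.7% on the untreated arrays, and 163, 142, 141 and 34.3% with LPS. The outlying readings were day 0 replicate 4, untreated replicate 2 and LPS replicate 4. Every pair of groups overlapped except day 0 and probiotic. The probiotic and LPS groups overlapped without these readings too, and the other pairs only through them. It passed the test in no comparison: the probiotic minus untreated difference was 1.40 ± 0.81 (log2, SE; limma adjusted p = 0.130). Without untreated replicate 2 that difference became 2.24, with a limma adjusted p of 0.0103.

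**Figure D4:**
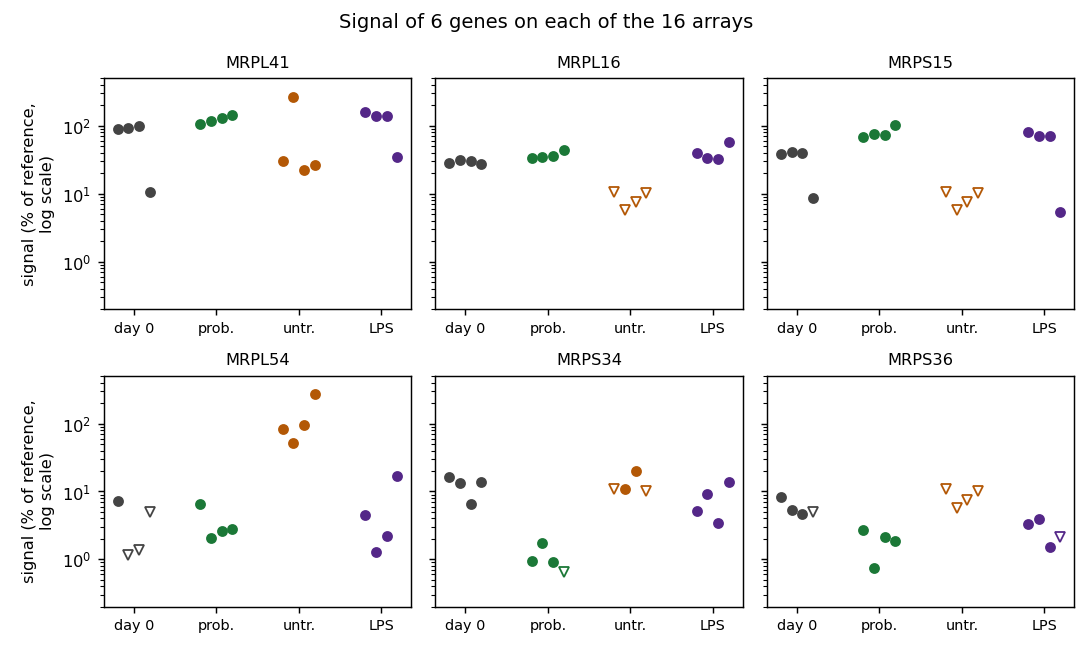
Signal of 6 mitoribosomal genes on each of the 16 arrays in percent of the reference level (log axis), 4 points per group in replicate order. Filled circles were well above background; open triangles are dim readings, which are upper limits. MRPL54 is high on all untreated arrays, MRPL16 and MRPS15 are dim there, and MRPS34 is lowest on the probiotic arrays.

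The end-of-study comparison set the probiotic arm against the water arm at day 60. Called higher in probiotic blood were 6 genes and called lower were 4 of the 53; over all 9401 features 11.7% were called higher and 24.4% lower. The higher genes were MRPS15 of the small subunit and MRPL16, MRPL17, MRPL20, MRPL21 and MRPL22 of the large subunit, all with bacterial counterparts. The lower were MRPL54, which has no bacterial counterpart, and MRPL10, MRPL24 and MRPS12, which have one. The other 43 did not pass, and for 23 of them no fold could be given because the probe was dim on every untreated array with a limit above the probiotic reading, or dim in both groups. Detected in both groups means, here and below, on at least 1 array of each. The 18 such genes had a median log2 difference of -0.49, beside -2.29 over the 4813 such features. Dim readings entered these medians at their limits, and several of the 18, such as MRPL48 and MRPL33, were detected on only 1 untreated array.

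MRPL16, the counterpart of a bacterial protein near the site where incoming tRNA binds, read 34.0, 35.2, 35.5 and 44.8% of the reference with the probiotic and was dim on all untreated arrays, whose limits ran from 5.68 to 10.7%. It was at least 4.49-fold higher (log2 2.17 ± 0.30, limma adjusted p = 1.35e-05). MRPS15 read 68.7, 76.1, 72.9 and 104% and was also dim on every untreated array, at least 9.62-fold higher (log2 3.27 ± 0.72, limma adjusted p = 0.000704). MRPL17 (26.3, 28.4, 27.9 and 33.4%) and MRPL22 (33.9, 33.1, 32.7 and 35.1%) were dim there too, with lower limits of 3.49-fold and 4.07-fold. The probiotic readings of these 4 genes lay above every untreated limit. MRPL22, whose bacterial counterpart lines the exit tunnel of the nascent chain, kept its side of the threshold in only 2 of 8 fits that left out 1 array, with log2 differences from 1.85 to 2.15. It was detected on 3 arrays at day 0, 4 with the probiotic, 0 untreated and 3 with LPS. It thus entered the tests only through the probiotic group, where it was called higher, so its call is not independent of the filter.

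MRPL20 and MRPL21 were detected on part of the untreated arrays. MRPL20 read 32.5, 31.9, 32.8 and 48.1% with the probiotic and 12.3% on untreated replicate 4, the only untreated array that detected it; the log2 difference was 2.04 ± 0.37 (limma adjusted p = 0.000129). MRPL21 was detected on untreated replicates 1 and 4, at 13.7 and 15.5%, and the difference was 1.89 ± 0.34 (limma adjusted p = 0.000103). Groups did not overlap for either gene. All 6 of these probes lie in rows 25 to 81 or in row 508, in the zone read best on the probiotic arrays. Of 36 genes whose tested probe lay in the outer rows 6 were called higher and 2 lower. Of 17 with a middle-row probe the counts were 0 and 2. With each zone tested alone these counts were the same. Then 17% of all outer-row features were called higher and 13.3% lower, and 3.48% and 42.8% of all middle-row features. With every kept probe tested on its own, further probes were called. A second MRPL20 probe, in middle row 227, was higher too (log2 2.47 ± 0.64, limma adjusted p = 0.00254). Probes of MRPL12 (row 367), MRPL11 (row 210), MRPL23 (row 167) and MRPL49 (row 100) were called lower, by log2 values of -2.99, -5.09, -5.68 and -5.66, while the probes that represent these 4 genes were not called.

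MRPL54 gave the opposite pattern. Its probe read 6.48, 2.06, 2.59 and 2.82% of the reference with the probiotic and 82.4, 51.6, 95.6 and 274% on the untreated arrays, a log2 difference of -5.03 ± 0.77 (limma adjusted p = 2.90e-05). The groups were far apart, and day 0 and LPS resembled the probiotic arrays, with readings of 7.16% on day 0 replicate 1, dim on the others, and of 4.50, 1.29, 2.18 and 16.8% with LPS. The other MRPL54 probe, in row 424, was detected on 1 array only, untreated replicate 2, at 7.01%. MRPL10, the stalk base protein, read 6.22, 6.56, 6.71 and 9.22% against 21.6, 12.3, 21.5 and 25.9% (log2 -1.47 ± 0.38, limma adjusted p = 0.00254), with no overlap. MRPL24 in row 56 (6.76, 7.52, 6.07 and 0.893% against 25.4, 8.37, 18.4% and dim) and MRPS12, the counterpart of a decoding-centre protein (4.03, 3.79, 4.47 and 2.21% against 16.5, 7.89, 10.2% and dim), fell by 1.79 and 1.62 on the log2 scale. Both lost the call without untreated replicate 1, 2 or 3. Each was detected on those 3 untreated arrays alone and 3 were required, so this loss was fixed beforehand. MRPS12 also lost the call without probiotic replicate 4. Over the 8 fits without 1 array the values were -2.09 to -1.06 for MRPL24 and -1.77 to -1.40 for MRPS12. The MRPL24 probe in row 524, tested on its own, was not called (log2 -0.40 ± 0.34, limma adjusted p = 0.295) and was dim on all untreated arrays.

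The balance of calls in this comparison followed the scaling. Members called higher and lower numbered 14 and 1 with the software's processed signal, 32 and 1 with normexp and quantile normalization, 26 and 1 with the 75th percentile of all probes, 37 and 1 with quantile normalization, 1 and 2 with cyclic loess, 43 and 0 when each array was centred within 10 blocks of rows, and 0 and 1 in the authors' deposited table of group averages. In that order, the share of all features called higher was 20.4, 38.8, 34.1, 43.2, 5.47, 62.7 and 0.84%. The share called lower was 18.9, 19.9, 17.4, 19, 18.8, 3.53 and 7.74%. The median over all features moved from -1.67 to between -0.30 and 2.05 under these settings. MRPL54 stayed lower and MRPS15 and MRPL22 higher in direction under every one of them. MRPL10, MRPL24 and MRPS12 turned, and MRPL16, MRPL17, MRPL20 and MRPL21 turned in the authors' deposited table alone.

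**Figure D5:**
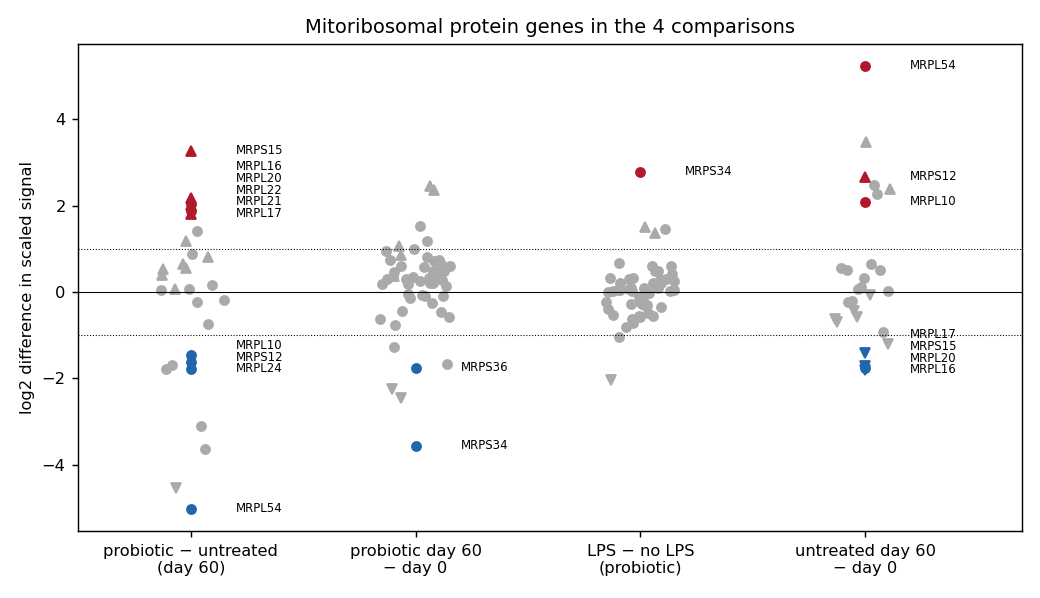
Log2 difference in scaled signal of the mitoribosomal genes in the 4 comparisons, for genes detected in both groups (circles) or dim in the lower group (triangles). Triangles are lower limits of the size where the higher group held no dim array. Red and blue mark genes called higher and lower, grey those not called, and dotted lines a fold of 2. Genes with no fold are not drawn, from left to right 23, 2, 0 and 25 of 53.

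The comparison of probiotic blood at day 60 with day 0 covers the supplement period. Here 0 of 53 genes were called higher and 2 lower, beside 1.96% and 3.07% of all features. The calls were MRPS34, a mitochondria-specific protein of the small subunit, and MRPS36, which carries a small-subunit name only. The 44 genes detected in both groups had a median log2 difference of 0.28, and so did the 6877 features detected in both. Of the 49 uncalled genes with a value, 34 had a fitted value above 0 at day 60. The median over all tested features was above 0 as well, at 0.053. By limma's unadjusted p under 0.05 the members numbered 4 higher and 6 lower. The share of all features was counted for neither rule, so neither count is read as a trait of the members.

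MRPS34, a protein needed for a stable small subunit, read 16.2, 13.4, 6.47 and 14.0% of the reference at day 0. With the probiotic it read 0.950, 1.75 and 0.915% and was dim on replicate 4, while LPS-treated blood of the same cows read 5.12, 9.24, 3.46 and 13.7%. All probiotic arrays lay below all day 0 and all LPS arrays. The differences were -3.58 ± 0.46 against day 0 (log2, SE; limma adjusted p = 0.000961) and, for LPS minus probiotic, 2.79 ± 0.46 (limma adjusted p = 0.00359). Both rest on the same low probiotic readings of 1 probe, printed above, in row 123 among the poorly read middle rows. The fall from day 0 lost its call with 1 floor for all arrays (log2 -0.32, limma adjusted p = 0.741) and with no floor (-3.62, limma adjusted p = 0.649); limma adjusted p-values ranged from 9.22e-07 to 0.741 over all settings.

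MRPS36, named as a ribosomal protein and since known as a subunit of the 2-oxoglutarate dehydrogenase complex, read 8.32, 5.33 and 4.73% on day 0 replicates 1 to 3 and was dim on replicate 4, below 4.95%. With the probiotic it read 2.73, 0.742, 2.11 and 1.85%. The detected readings did not overlap (log2 -1.76 ± 0.43, limma adjusted p = 0.0258). The call was lost without day 0 replicate 1, 2 or 3 or probiotic replicate 2 or 3, with log2 values of -1.58, -1.79, -1.85, -1.37 and -1.87. Without day 0 replicate 1, 2 or 3 fewer than the required 3 detected day 0 arrays were left, so that loss was fixed beforehand. The limma adjusted p-values of those fits were 0.0715, 0.0586 and 0.0508. The sign turned to 0.13 when arrays were centred within blocks of rows. Members called higher numbered 25 with the processed signal, 20 with centring within blocks of rows and 25 by fold alone in the authors' deposited table, where 40.0%, 39.7% and 56.9% of all features were higher too. MRPS36 was among the genes named for roles outside the ribosome or in disease. Others named by the same rule were not called: MRPL12 at -0.43, MRPS22 at 0.46 and MRPS30, a large-subunit protein also called PDCD9, at 0.26 on the log2 scale. The paralogue MRPS18A, at 0.57, was not called either.

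LPS against no LPS in probiotic blood, the labels' positive control, was the only comparison within 1 scan day. It moved few features: 1 of 53 genes, MRPS34 above, was called higher and 0 lower, beside 1.13% and 0.0638% of all features. By limma's unadjusted p under 0.05 there were 4 higher and 0 lower, and the share of all features at that level was not counted. The 50 genes detected in both groups had a median log2 difference of 0.03, and the 9020 features one of 8.65e-05. The list of mitochondria-specific small-subunit genes, with MRPS36 in it by name, had a median of 0.31 over 7 genes. The list of mitochondria-specific large-subunit genes had one of -0.29 over 16. MRPS15 and MRPL22 show how much of the spread lies in LPS replicate 4. MRPS15 read 81.5, 70.8 and 71.8% on LPS replicates 1 to 3 and 5.41% on replicate 4; MRPL22 read 43.4, 38.5 and 37.2% and was dim on replicate 4. The MRPS34 call was lost in 7 of 17 other settings, among them the fit of the 8 arrays alone (limma adjusted p = 0.0581), while the direction held in all.

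The comparison of untreated blood at day 60 with day 0 covers the same period without the supplement. Called higher were 3 genes, MRPL54, MRPS12 and MRPL10, and called lower were 4, MRPL16, MRPL20, MRPS15 and MRPL17, beside 24.5% and 7.2% of all features. The members' share called higher, 3 of 53, lay below that background. The untreated arrays are those of the comparison with the probiotic. MRPL54 differed by 5.23 ± 0.77 on the log2 scale (limma adjusted p = 6.96e-05), its day 0 group being dim on 3 of 4 arrays. MRPL16 was at least 3.51-fold lower, from 28.1, 31.0, 30.0 and 27.1% at day 0 to dim on all untreated arrays. MRPL17 (19.3, 21.2, 20.4 and 27.2% at day 0) was at least 2.64-fold lower. MRPS15 read 38.6, 41.3, 40.1 and 8.70% at day 0 and was at least 3.30-fold lower, a call lost in 7 of 8 fits without 1 array (log2 -2.27 to -1.52). It was kept only without day 0 replicate 4. MRPS12, dim on all day 0 arrays, was 6.38-fold higher by the fit. This is not a lower limit, since untreated replicate 4 was dim too and entered at its own limit. The call was lost without untreated replicate 1, 2 or 3 (2.44 to 3.19 over the 8 fits). MRPS12 was detected on those 3 untreated arrays alone and 3 were required, so that loss was fixed beforehand.

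This balance moved with most of the scalings tried. Members called higher and lower numbered 1 and 4 with the processed signal, 2 and 28 with normexp and quantile normalization, 1 and 30 with the 75th percentile of all probes, 2 and 29 with quantile normalization, 2 and 1 with cyclic loess and 1 and 17 with centring within blocks of rows. In that order, the share of all features called higher was 11.1, 17.3, 6.94, 17.2, 12 and 6.35%. The share called lower was 6.79, 30.9, 29.2, 33.8, 4.47 and 19.1%. The median over all features moved from 1.80 to between -0.49 and 0.85 under these settings. By fold alone, 2 members were higher and 3 lower in the authors' deposited table, beside 25.8% and 6.86% of all features. The median over all features was 2.03 there.

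The other genes of mitochondrial translation were counted by list, and their calls for probiotic against untreated stand beside 11.7% of all features called higher and 24.4% lower. Of 4 tested mitoribosomal proteins under other names, ICT1, a release factor built into the large subunit, was called higher with the probiotic than in untreated blood (at least 4.84-fold). Of 6 tested translation factors limma called 0 in every comparison, and at an unadjusted p under 0.05 there was 1 lower for probiotic against untreated and 1 higher for untreated against day 0. Among 13 assembly and rRNA modification genes MALSU1 and MPV17L2 were called higher with the probiotic than in untreated blood and MRM1, an rRNA methyltransferase, lower (log2 -4.51 ± 0.62, limma adjusted p = 1.33e-05). Among 11 mitochondrial aminoacyl-tRNA synthetases, HARS2 and TARS2 were called higher and LARS2 and VARS2 lower in the same comparison. HARS2 was also higher with the probiotic than at day 0 (log2 1.17 ± 0.30, limma adjusted p = 0.0345), where 1.96% of all features were called higher. In untreated blood against day 0, MRM1, LARS2 and VARS2 were called higher and MALSU1 lower, beside 24.5% and 7.2% of all features. For LPS limma called 0 genes of these lists, and 0 at an unadjusted p under 0.05. The 2 tested genes of mitochondrial DNA transcription were not called by limma in any comparison, with 0 at an unadjusted p under 0.05. The share of all features at that unadjusted level was not counted.

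Blood cell markers moved with the same arrays. Genes of the T cell list detected per array numbered 7 of 7 on the probiotic arrays, 6 to 7 with LPS, 3 to 6 at day 0 and 1 to 3 on the untreated arrays. The neutrophil list gave 3 to 7 of 8, 6 to 7, 4 to 5 and 2 to 5 in that order, with CXCR1 on no array. The monocyte list gave 4 of 5 with the probiotic, 5 with LPS, 4 to 5 at day 0 and 2 to 3 in untreated blood, and the B cell list 3 of 5, 3 to 4, 4 and 2 to 3. The killer cell list gave 2 to 3 of 5, 3, 3 and 1 to 2. Erythroid genes were detected at 3 to 5 of 7 in every group, with SLC4A1 on no array, and platelet genes at 2 to 3 of 4, 1 to 4, 1 to 2 and 0 to 1. In probiotic against untreated blood CD247, CD3E, LCK, CD79A, CD79B, CSF1R, SIRPA, LYZ, S100A12, CSF3R, CXCR2, GNLY and HBG were called higher and CD2, CD14 and AHSP lower, so that the T cell, monocyte and erythroid lists were split. The part of cell makeup in the mitoribosomal differences was not tested.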

How the data were processed

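Whole-blood RNA pools were read on 16 single-colour Agilent 4x44K bovine arrays; per the labels, RNA had to exceed an integrity number of 7, and 0.5 µg was used. The authors deposited 1 scanner file per array from Agilent Feature Extraction 10.10.1.1, per the submitters' processing notes and the file headers. The deposited background-subtracted intensity was used, not the processed intensity, which on 4 arrays had also been detrended over the surface. A further deposited table gives group averages of each probe as log2, whose normalization is not given in the sources used here.

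Members and lists were chosen with earlier results of these data known. The 1417 control spots and outlier spots were left out; for mitoribosomal probes 6 readings were lost this way, and the fit left them missing. Net intensity was divided by the 75th percentile of the 671 probes well above background on all arrays, floored per array at its dimmest detected spot, and taken as log2. Differences were tested two-sided by limma 3.58.1 (lmFit, eBayes; R 4.3.3) over all 16 arrays, and the script was tested on simulated data. Errors of differences are standard errors. Only the number of arrays limits precision, since pools were not repeated.

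Genes were named by this rule: members detected on all arrays, up to 10 called members per comparison by size, the S18 paralogues, 8 genes known outside the ribosome or in disease, members whose kept probes were called in opposite directions (0 found among 16 genes with several kept probes), and up to 4 called genes of each other list. More marker genes than that rule allows are listed where a list had more calls, and some marker genes are not reported here. Alternatives covered signal, scaling, floor, filter, probe choice, samples and position. The replicate number was taken from the sample titles. Same-numbered arrays did not deviate together in every pair, so it was not used as a block.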

Additional observations from a re-analysis of the deposited data

Results flagged for a closer look

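A reading is listed here when it stood apart from the other 3 arrays of its group by more than the 5% critical value of Dixon's test for 4 values allows on the log2 scale, in groups where at least 3 arrays detected the probe; chance gives about 1 such group in 20. Values are percent of the reference level. Day 0 replicate 4 was lowest for MRPL41 (10.65) and MRPS15 (8.698), and for MRPS30 and MRPL22 it was dim, at the limit of 4.946, which for MRPS30 lay above its other readings. LPS replicate 4 was lowest for MRPL41 (34.27) and MRPS15 (5.415), dim at 2.155 for MRPS18A, MRPL10 and MRPL22, and highest for MRPL17 (68.79). Probiotic replicate 4 was highest for MRPS18A (11.05), MRPL16 (44.79) and MRPL20 (48.09), lowest for MRPL24 (0.8929), and had the fewest mitoribosomal probes detected in its group, 65. Untreated replicate 2 was highest for MRPL41 (268). The cause of these readings was not tested.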

How the results depend on the processing

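Counts are mitoribosomal genes called higher and lower. For probiotic against untreated (6 and 4 as reported) they were 14 and 1 with the processed signal, 32 and 1 with normexp (on the median spot signal, since a mean is not in the files) and quantile normalization, 26 and 1 with the percentile of all probes, 37 and 1 with quantile normalization, 1 and 2 with cyclic loess, 43 and 0 centred within row blocks, 26 and 1 with no floor, 0 and 0 over probes detected on all arrays (1 member), 8 lower with every probe a feature, 2 lower with a gene's probes averaged, 0 and 1 in the authors' table, and, in settings added after seeing the data, 1 lower with 1 floor for all arrays, 2 lower in the outer rows, and 0 and 2 in the middle rows. For probiotic against day 0 (0 and 2) the counts were 25 higher with the processed signal, 1 lower with normexp, 2 and 1 with quantile normalization, 1 lower with cyclic loess, 20 and 1 within row blocks, 0 lower with no floor, over probes detected on all arrays, with 1 floor and in the outer rows, 2 higher with no filter, 5 higher with array weights, 25 higher in the authors' table, and 2 and 4 without day 0 replicate 4 and LPS replicate 4 together. For LPS (1 and 0) higher calls were 2 with the processed signal, 5 (and 1 lower) with array weights, 3 (and 36 lower) in the authors' table, and 0 with normexp, quantile normalization, row blocks, no floor, probes detected on all arrays, the 8 arrays alone, 1 floor and the outer rows. For untreated against day 0 (3 and 4) the counts were 1 higher with the processed signal, 28 lower with normexp, 1 and 30 with the percentile of all probes, 29 lower with quantile normalization, 1 lower with cyclic loess, 1 and 17 within row blocks, 23 lower with no floor, 0 and 0 over probes detected on all arrays, 6 higher with every probe a feature, 7 lower without the 2 dim arrays together, 1 higher with 1 floor, 1 higher in the outer rows and 0 lower in the middle rows. Leaving out 1 array gave 5 to 6 and 2 to 4 for probiotic against untreated, 0 to 2 and 1 to 2 against day 0, 1 and 0 for LPS, and 2 to 3 and 3 to 5 for untreated against day 0. In these fits the higher group still needed 3 detected arrays. A gene detected on only 3 therefore lost its call whenever any of them was left out, whatever its values. Same-numbered arrays did not deviate together in every pair, and their correlations ran from -0.178 to 0.357. With the number as a replicate block the counts were 7 and 4, 0 and 3, 1 and 0, and 3 and 5. Signs turned for these log2 differences. Probiotic minus untreated: MRPL10 0.39 (percentile of all probes), 1.71 (row blocks) and 0.046 (authors' table); MRPL24 0.066, 2.39 and, with no floor, 1.93; MRPS12 0.24 (percentile of all probes), 0.10 (quantile), 0.23 (loess), 2.56 (row blocks) and 0.13 (authors' table); MRPL16 -0.080, MRPL17 -0.093, MRPL20 -0.66 and MRPL21 -0.35 (authors' table). Probiotic minus day 0: MRPL12 2.25 (processed), 1.46 (row blocks) and 2.02 (authors' table), and MRPS36 0.13 (row blocks). LPS: MRPL12 -1.26, MRPS22 -1.36 and MRPS30 -1.11 (authors' table). Untreated minus day 0: MRPS12 -1.74 (processed) and -0.56 (authors' table), MRPL10 -0.0069 (percentile of all probes) and -0.22 (row blocks), and MRPL16 0.11, MRPL17 1.04 and MRPL20 0.15 (authors' table). The mean share of member probes detected rose with the looser detection flag, positive and significant, to 62.1% at day 0, 70.4% with the probiotic, 38.9% untreated and 75.2% with LPS. The cause of these changes was not tested. Settings with fewer features or members, such as the filter on all arrays, have fewer genes to call.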
